A study of Macaca fascicularis and Macaca mulatta with 24 samples.

Results

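The left, non-ischemic cortex of placebo-treated macaques at 6 h was compared with the same cortex at 1 h after stroke, on 6 of the 24 arrays of the series. The members were chosen by their titles alone: 3 arrays of placebo left hemisphere at 6 h and 3 arrays of placebo left hemisphere at 1 h. Per the labels, cynomolgus macaques had the right middle cerebral artery occluded and received placebo or 2.6 mg/kg TatNR2B9c into a vein 5 min later. Biopsies were taken from the ischemic right side and from the left side at 1 h or 6 h, with 3 animals in each of the 8 groups. TatNR2B9c is a peptide that uncouples the NMDA receptor from the scaffold protein PSD-95. The animals of both times had the stroke and the placebo, so the comparison holds no unoperated animal and its left cortex is the side away from the occlusion.

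The cortex opposite a stroke keeps its blood flow, yet it shares the anaesthesia, surgery, stress hormones and circulating signals of the animal, and it is linked to the injured side through the corpus callosum. Cortical tissue is rich in transcripts of neurons, among them genes of synaptic vesicles, glutamate and GABA receptors and ion channels, which a reference RNA pooled from many tissues holds at lower share. On a 2-colour array the sample RNA competes for each probe with that reference, so a ratio can differ between times through either RNA or through either dye.

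The sample RNA was labelled with Cy5 and a common reference RNA with Cy3 on every array, with no dye swap. Each of the 15812 genes tested was therefore read in 3 ways: as the log2 ratio of Cy5 over Cy3, as the Cy5 level alone, and as the Cy3 level alone, which holds no sample of either time. All differences below are 6 h minus 1 h on the log2 scale, with the standard error of the limma fit, and a gene passed where its Benjamini-Hochberg adjusted p was under 0.05. Per the file headers the 1 h arrays were read on scanner model G2505B with extraction software 9.5.3.1 and the 6 h arrays on model G2505C with 10.5.1.1. No slide and no scan day held both times, so time and scanning cannot be told apart in any value of this comparison.

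Base composition differed between probes that read higher and probes that read lower in Cy5, and 6 probes were picked to show the contrast. The genes HSD17B1, SYT17 and PDZK7 were among the largest Cy5 rises, and CDKN1B, STAM2 and SLC4A4 among the largest Cy5 falls, by the rule described further on. Below are the first 30 bases of each 60-base probe, 5′ to 3′ as in the deposited files, with G and C in capitals.
HSD17B1: GtGGtCCCtGGGGaCGGGGCGGCGGtGGtG
SYT17: CGCaCCGCaCGGCCGtGGaGCaGtGGCaCa
PDZK7: GCtGaaGCaGCaaGatCaCttGaGCCCaGG
CDKN1B: aGGtttttCCCCtCttttGttaaataatat
STAM2: GCtCttGataataGtCaaCatttGCatata
SLC4A4: ttttaGCCattttCatGGCtGGtaCatatt
The whole probes lie on the rhesus build rheMac2 at chr16:52678765-52678824 (plus strand, HSD17B1), chr20:18233000-18233059 (plus strand, SYT17), chr9:100630244-100630303 (minus strand, PDZK7), chr11:13075404-13075463 (plus strand, CDKN1B), chr12:15789521-15789580 (minus strand, STAM2) and chr5:58086827-58086886 (minus strand, SLC4A4). Whether they lie in a coding exon or elsewhere in the transcript was not analysed here. G and C made up 43, 42 and 31 of the 60 bases of the 3 probes that read higher at 6 h, and 21, 18 and 21 of the 60 bases of the 3 that read lower. Not every large rise had such a probe: G and C made up 41.7% of the probes of FSIP2 and SNRPD3 and 38.3% of that of PEG3, which equals the share in the falls KLF9, SOCS6, ARV1 and ELOVL2.

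The arrays of the 2 times differed in signal before any gene was compared. Among all probes, those well above background in Cy5 made up 86.1%, 81.9% and 93.3% at 6 h, against 74.7%, 75.5% and 45.4% at 1 h. In Cy3 the shares were 88.7%, 84.3% and 92.5% at 6 h, against 18.0%, 50.7% and 15.7% at 1 h. The reference RNA thus read well above background for most probes at 6 h and for a minority on 2 of the 3 arrays at 1 h. The median Cy3 signal over background averaged 240 ± 87 units at 6 h and 17.7 ± 5.1 units at 1 h (SD, n = 3 each). The spread of the log2 ratios over genes was 1.57, 1.499 and 1.67 at 6 h, against 0.36, 1.09 and 1.08 at 1 h. For each of these 4 measures (the shares in Cy5 and in Cy3, the median Cy3 signal and the spread of the ratios) the groups did not overlap, and the exact two-sided permutation test gave p = 0.1, the smallest that 3 against 3 arrays allow (0.175 after adjustment over 7 measures). The correlation of Cy5 with Cy3 over genes was 0.77, 0.77 and 0.72 on the 6 h arrays, against 0.77, 0.79 and 0.74 on the 1 h arrays.

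**Figure D1:**
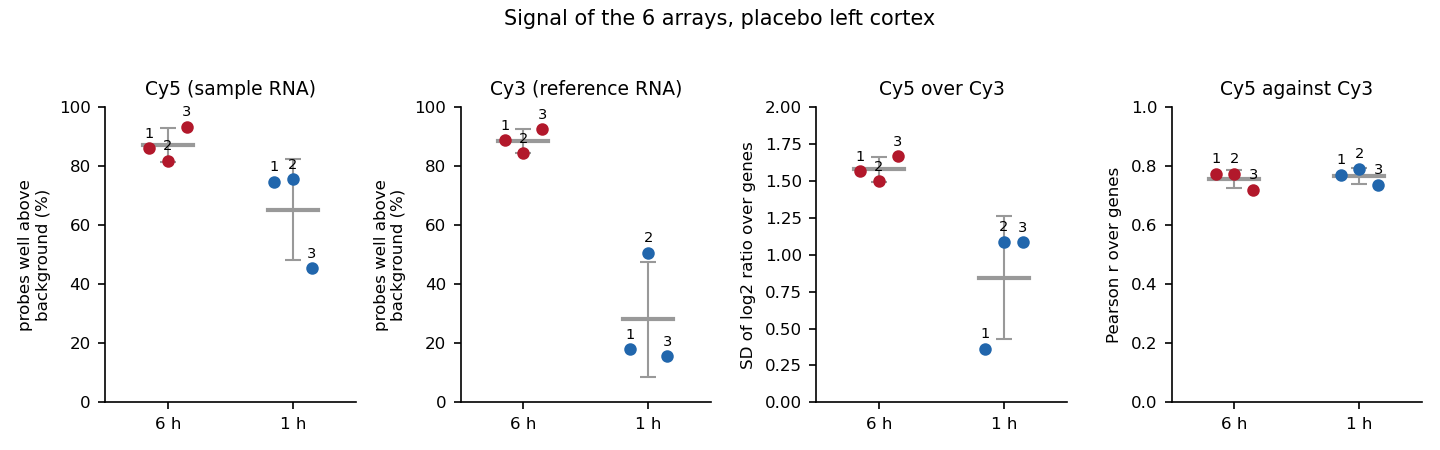
Signal of the 6 arrays by time: the percentage of probes well above background in Cy5 and in Cy3, the SD over genes of the log2 ratio, and Pearson's r of Cy5 with Cy3 over genes. Points are arrays with their replicate number, and grey bars are the mean and SD of 3; the 6 h arrays lie above all 1 h arrays in the first 3 panels (Cy3 84.3% to 92.5% against 15.7% to 50.7%).

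Array 1 of the 1 h group stood apart in the ratio and in Cy3, and not in Cy5. Its ratios correlated with those of the 6 h arrays at 0.15 to 0.18 over genes, whereas those of the other 2 arrays at 1 h did so at 0.59 to 0.82. In Cy5 alone the same array correlated with the 6 h arrays at 0.92. In Cy3 it did so at 0.64 to 0.67, whereas the other 2 arrays at 1 h did so at 0.83 to 0.94. Array 3 of the 1 h group had 688 spots marked nonuniform, against 1 to 33 on the other 5 arrays. These correlations run over 15812 genes that share arrays, so they describe the arrays and were not tested.

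In the ratio 8534 genes passed, 54% of those tested, of which 4852 (30.7%) were higher and 3682 (23.3%) lower at 6 h. The split between rises and falls depended on the centring: of the genes that passed, 56.9% were higher, against 34.2% of 12066 with median centring in place of loess and 38.4% of 4650 with Agilent's own processed signals, where the median over all genes was -0.89 and -0.34 in place of 0.11. In Cy5 alone 2299 passed (14.5%), 1169 higher and 1130 lower. In Cy3 alone, where the RNA was the common reference, 4733 passed (29.9%), 2962 higher and 1771 lower. Of the 8534 genes that passed in the ratio, 55.6% had the same sign in Cy5 and 78.7% had the opposite sign in Cy3. Passing in Cy5 with the same sign was seen for 842 of them (5.33% of genes tested), and with the opposite sign for 373. Over genes, the ratio difference correlated at 0.08 with the Cy5 difference and at -0.61 with the Cy3 difference. For 3106 of the ratio calls (36.4%) the Cy3 probe was not well above background on any 1 h array, and for 551 the Cy5 probe was not, so those have only a bound at 1 h. The Cy5 count fell to 1181, 1096, 1248 and 1126 without array 2 or 3 at 6 h and array 1 or 3 at 1 h, in that order.

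The ratios at 6 h spread far from 0 while those at 1 h lay closer to it. Of 3048 genes whose mean log2 ratio at 6 h was above 1, 2851 (93.5%) passed as higher and 0 as lower. Of 3417 genes whose mean was below -1, 2462 (72.1%) passed as lower and 20 as higher. The ratio difference correlated with the ratio at 6 h at 0.89 over genes, as a description, because the 6 h values are in both.

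The largest ratio rises and falls were then read channel by channel. The 10 largest rises included SLC32A1, the vesicular transporter that loads GABA into synaptic vesicles, GRIA3, a subunit of AMPA glutamate receptors, ICAM5, an adhesion molecule of neuronal dendrites, SLC8A2, a sodium-calcium exchanger, LRRC4, a synaptic adhesion protein, and SYT17, a synaptotagmin. MGC10772, KCTD1, ZFYVE19 and TNRC4, an RNA-binding protein, made up the rest. Their ratio differences ran from 4.22 to 5.48, and in Cy3 alone 8 of the 10 passed as lower at 6 h. In Cy5 alone 6 of the 10 passed as higher, and KCTD1 had a difference of -0.06 (limma adjusted p = 0.950).

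SLC32A1 had log2 ratios of 0.66, 0.60 and 1.07 at 6 h, against -4.31, -4.23 and -3.78 at 1 h. Its Cy5 levels were 7.31, 7.55 and 7.91 at 6 h, against 7.12, 6.94 and 7.15 at 1 h. Its Cy3 levels were 6.62, 6.71 and 6.67 at 6 h, against 14.31, 10.01 and 10.24 at 1 h. The ratio groups lay far apart (4.88 ± 0.51, limma adjusted p = 3.04e-06), the Cy5 difference did not pass (0.52 ± 0.40, adjusted p = 0.429) and the reference channel read lower at 6 h (-4.85 ± 0.87, adjusted p = 0.000727). GRIA3 differed from it in the sample channel, with Cy5 levels of 12.35, 12.31 and 12.32 at 6 h, against 11.08, 11.03 and 10.87 at 1 h (1.33 ± 0.26, adjusted p = 0.00264). Its Cy3 difference was -1.04 ± 0.39 and did not pass (adjusted p = 0.0515).

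The 10 largest ratio falls included MOCOS, an enzyme that activates molybdenum cofactor enzymes, CA13, a carbonic anhydrase, GIPC2, SLC23A1, a vitamin C transporter, NEB, the muscle protein nebulin, ACSM3, CDH1, the epithelial cadherin, CBLC and SLC40A1, the iron exporter ferroportin. Their ratio differences ran from -3.75 to -3.40. None of the 10 passed as lower in Cy5 alone, where NEB passed as higher (1.18 ± 0.34, limma adjusted p = 0.0258) and 2 of the 10 were below 0 without passing. In Cy3 alone 9 of the 10 passed as higher at 6 h. MOCOS had Cy5 levels of 7.02, 6.99 and 7.12 at 6 h, against 6.90, 7.05 and 6.81 at 1 h, which overlapped. Its Cy3 levels were 9.73, 9.51 and 9.96 at 6 h, against 6.28, 9.01 and 8.73 at 1 h, with no overlap.

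**Figure D2:**
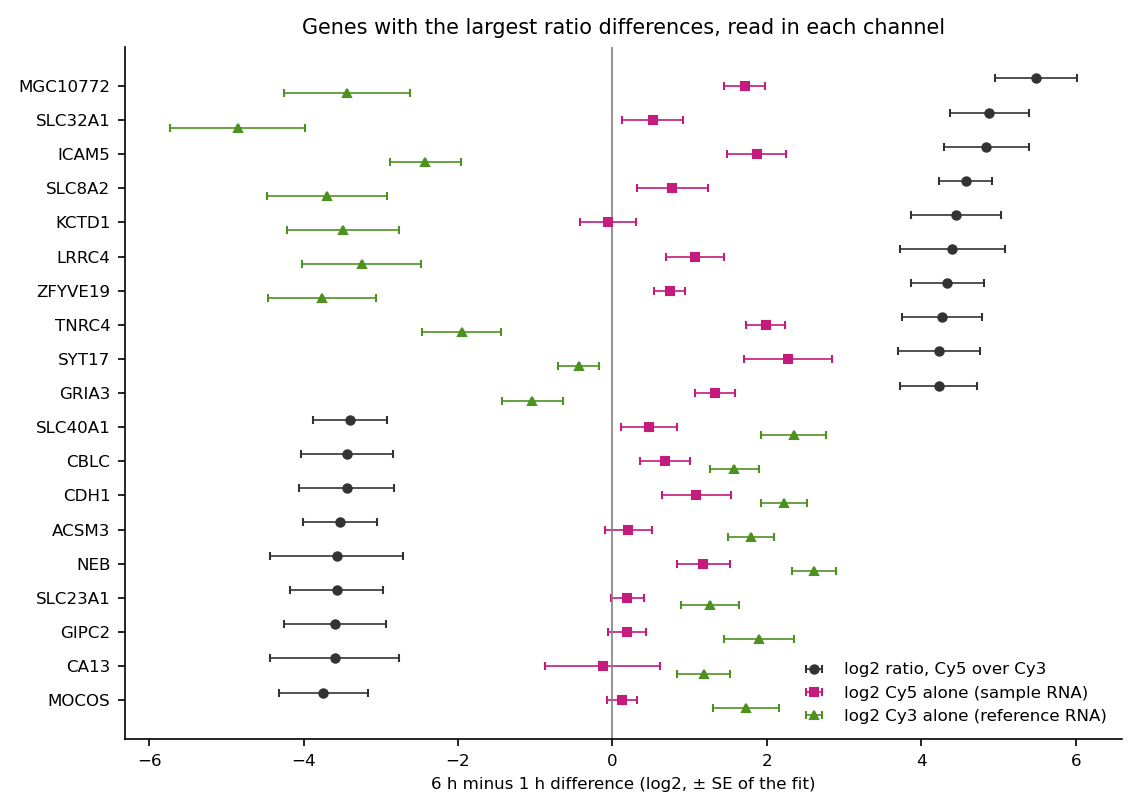
Time difference (log2, 6 h minus 1 h, ± SE of the limma fit) of 10 genes with the largest ratio rises and 9 of those with the largest falls, read as the ratio and in each channel. The 10 rises (4.22 to 5.48 in the ratio) have Cy3 differences below 0, and the 9 falls shown (-3.75 to -3.40) passed as higher in Cy3.

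Genes that differed the same way in the sample channel and in the ratio were set apart by a rule. They passed in the ratio and in Cy5 alone with the same sign, their groups overlapped in neither, and their Cy3 difference was under 0.5 of the Cy5 difference. Groups did not overlap for 63.8% of genes in the ratio and for 50.1% in Cy5, whether or not the genes passed. The whole rule held for 549 genes (3.47%), 263 higher (1.66%) and 286 lower (1.81%) at 6 h. The count was 293 and 250 without array 2 and array 3 at 6 h, and 328, 363 and 274 without array 1, 2 and 3 at 1 h, and 121 of the 549 (69 higher, 52 lower) met the rule in all 6 fits that left out 1 array. The rule uses the ratio and Cy5, so these genes are a description of agreement between readings that share the Cy5 signal, not a further test. The Cy3 probe was well above background on all 3 arrays at 1 h for 32 of the 263 and 39 of the 286. For the others the ratio and the Cy3 difference rest on at least 1 Cy3 value at 1 h that was not. Among list members named further on, DLG4, NOS1, NOS1AP, SYP, SYN1, SCN8A, CACNA1A and KCNB2 had no 1 h array where it was. The same held for IFIT5, CREM, FTH1 and SQSTM1.

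The genes named next are from the 10 largest Cy5 rises and the 10 largest falls among the 482 (3.05%) that had a symbol and were well above background in Cy5 on at least 2 arrays of each group. Among the rises, HSD17B1, an enzyme that makes estradiol, had Cy5 levels of 11.65, 12.21 and 11.84 at 6 h, against 9.34, 8.87 and 8.58 at 1 h. The difference was 2.97 ± 0.33 (limma adjusted p = 2.65e-05), 7.83-fold in Cy5. Its ratio was higher by 1.92, but -0.13 with median centring in place of loess, where the median over all genes was -0.89. FSIP2, a protein of the sperm tail, had Cy5 levels of 12.18, 12.26 and 12.18 at 6 h, against 8.66, 7.90 and 8.85 at 1 h. Both genes read far above all 1 h arrays at 6 h, and both are known mainly from tissues other than cortex.

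NEFL, the light neurofilament protein of axons, had Cy5 levels of 12.21, 12.99 and 12.63 at 6 h, against 10.06, 10.38 and 9.69 at 1 h (2.56 ± 0.39, limma adjusted p = 0.000342). Its 6 h levels lay far above all 1 h levels. For NEFL, FSIP2, HSD17B1 and PDZK7 the rule held without each array in turn. APOA2, an apolipoprotein of high-density lipoprotein made in liver, had the largest Cy5 difference, 3.97 ± 1.18 (adjusted p = 0.0293), but its 1 h levels of 8.38, 13.88 and 11.58 spread widely. Without array 1 at 1 h its difference was 2.52 (adjusted p = 0.175), and it did not pass either without array 3 at 1 h or without any of the 3 arrays at 6 h. SNRPD3, a core protein of the spliceosome, PDZK7, SYT17 and PEG3, an imprinted zinc finger gene, were also among the 10, with Cy5 differences of 2.43, 2.39, 2.27 and 2.23. PDZK7 had a ratio difference of 1.80, which was -1.98 with median centring.

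Among the falls, CDKN1B, which encodes the cell cycle inhibitor p27, had Cy5 levels of 11.44, 11.48 and 11.67 at 6 h, against 13.51, 13.47 and 13.44 at 1 h. It was 3.84-fold lower in Cy5 at 6 h (-1.94 ± 0.24, limma adjusted p = 6.19e-05). ADD3, a protein of the membrane skeleton, had 11.30, 11.53 and 11.56 at 6 h, against 13.22, 13.32 and 13.35 at 1 h (-1.83 ± 0.34, adjusted p = 0.00166). STAM2, a part of the endosomal sorting machinery, had 8.03, 7.36 and 7.66 at 6 h, against 9.38, 9.40 and 9.54 at 1 h (-1.75 ± 0.26, adjusted p = 0.000357). In these 3 genes the 1 h arrays lay close together and far above the 6 h arrays.

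SOCS6, a suppressor of cytokine and growth factor signalling, fell by 1.67 ± 0.35 (limma adjusted p = 0.00391), with 8.80, 8.72 and 8.68 at 6 h, against 10.40, 10.37 and 10.45 at 1 h. ELOVL2, which lengthens polyunsaturated fatty acids, fell by 1.74 ± 0.40 (adjusted p = 0.00751). KLF9, a transcription factor induced by glucocorticoids, fell by 1.66 ± 0.36 (adjusted p = 0.00575), with 11.75, 11.81 and 11.87 at 6 h, against 13.56, 13.61 and 13.23 at 1 h. AGXT2L1, an enzyme that breaks down phosphoethanolamine, fell by 2.16 ± 0.55, and SLC4A4, the sodium bicarbonate cotransporter of astrocytes, by 1.77 ± 0.42. ARV1, a protein of endoplasmic reticulum lipid transport, and MED7, a subunit of the Mediator complex, fell by 1.68 and 1.66. The rule held without each array in turn for ADD3, ELOVL2, SOCS6 and STAM2 among the 10.

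**Figure D3:**
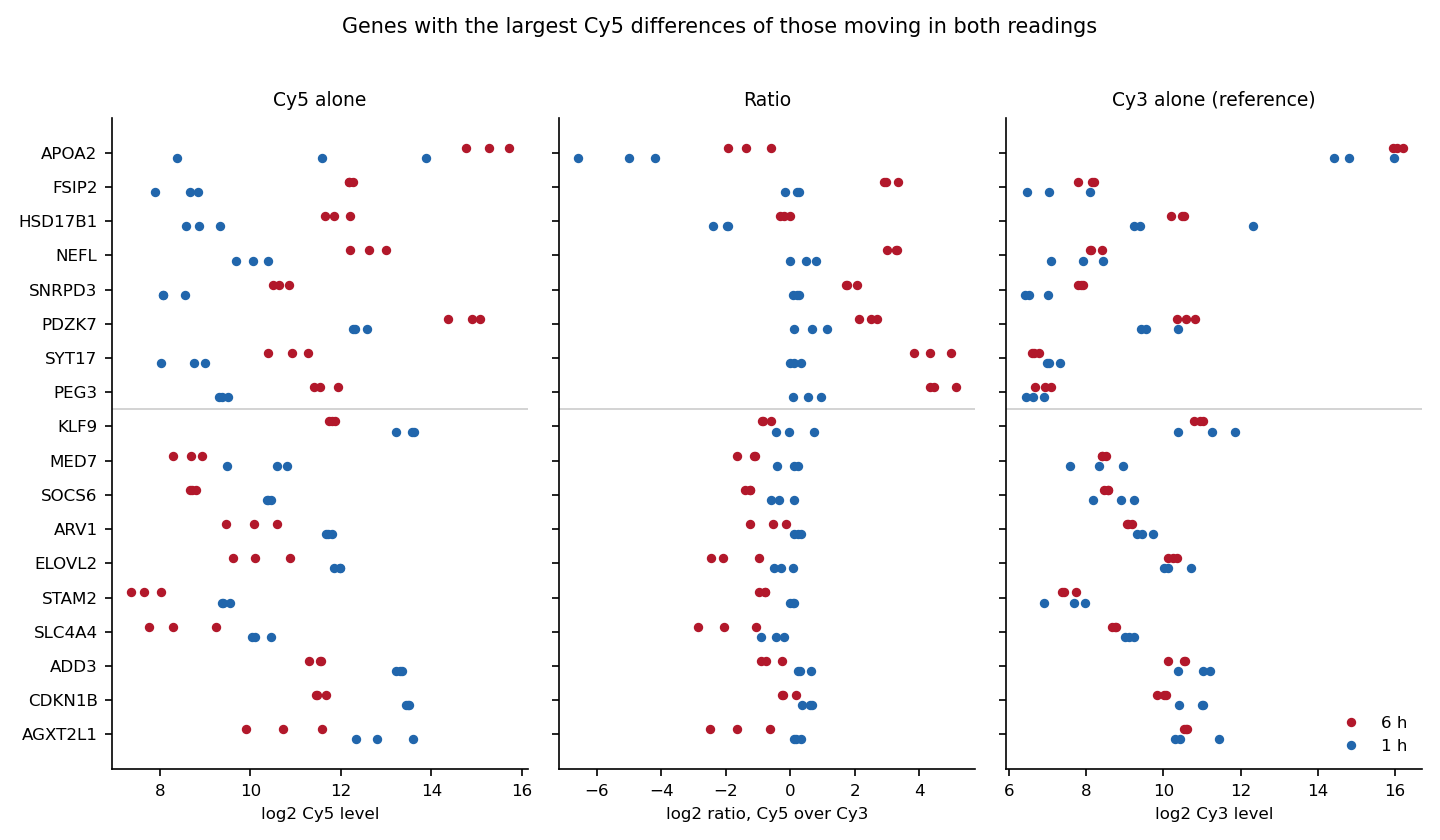
Log2 level in Cy5, log2 ratio and log2 level in Cy3 on each of the 6 arrays, for 8 of the largest Cy5 rises (top) and the 10 largest Cy5 falls (bottom) among genes meeting the rule for both readings. In the Cy5 and ratio panels the 3 points at 6 h and the 3 at 1 h of a gene do not overlap, as the rule requires.

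Base composition moved with the Cy5 difference. The probes of the 263 genes that were higher had a median of 53.3% G and C (quartiles 45% and 55%) and those of the 286 that were lower had 36.7% (35% and 40%), against 43.3% (36.7% and 50%) over all genes tested. Over all genes the share of G and C correlated with the Cy5 difference at 0.36, with the ratio difference at 0.07 and with the Cy3 difference at -0.01. The median Cy5 difference was -0.40 for probes of 30% to 35% G and C and 0.50 for probes above 60%, but 0.12 for the 719 genes whose probes had 30% or less. The part of base composition in the time difference was not tested beyond centring. When the Cy5 levels were centred on the G and C share of the probe, an alternative chosen after seeing the data, 1473 genes passed in Cy5 and 336 met the rule, 229 of them among the 549. Of the 10 largest rises and 10 largest falls, 8 of each still met it, and APOA2, SYT17, CDKN1B and MED7 did not. The Cy5 difference of CDKN1B itself still passed after centring (-1.46, limma adjusted p = 0.000211).

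**Figure D4:**
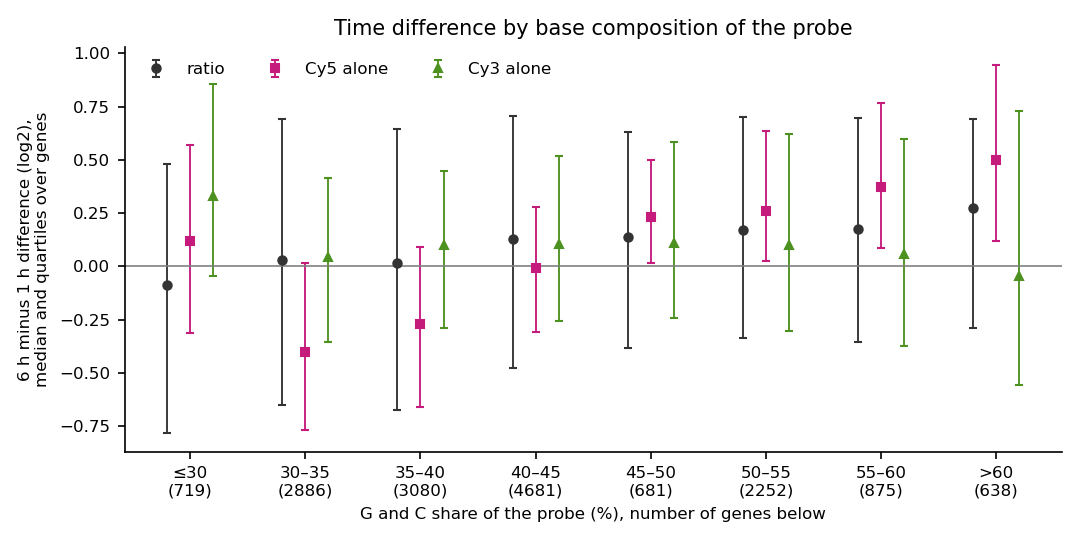
Median and quartiles over genes of the 6 h minus 1 h difference (log2) by the share of G and C in the probe, for the ratio, Cy5 and Cy3. The Cy5 median is 0.12 at 30% or less, then -0.40 at 30% to 35%, with higher values up to 0.50 above 60%, while the ratio medians stay between -0.09 and 0.27.

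The genes of known groups were then counted, against 30.7% of all genes higher and 23.3% lower in the ratio, 7.39% and 7.15% in Cy5, and 18.7% and 11.2% in Cy3. In bulk tissue, fewer cells of a type and less RNA per cell cannot be told apart. Of 26 neuronal marker genes tested, all were well above background in Cy5 on all 6 arrays, against 8378 of the 15812 genes tested. Transcripts of neurons were thus read at both times. In the ratio 23 of the 26 rose and 0 fell, with a median difference of 2.32, against 0.11 over all genes, but with median centring in place of loess the medians were -1.29 and -0.89. In Cy5 alone 4 rose and 3 fell, with a median of 0.14 against 0.01, and in Cy3 alone 17 fell, with a median of -1.16 against 0.10. CAMK2A, a kinase of excitatory synapses, had a ratio difference of 4.15 (-0.56 with median centring), a Cy5 difference of 0.73 (limma adjusted p = 0.0660) and a Cy3 difference of -3.32. UCHL1, an abundant neuronal deubiquitinase, had 3.46 in the ratio, 0.13 in Cy5 (adjusted p = 0.824) and -3.14 in Cy3. The neuropeptide NPY had 3.49 in the ratio (-0.15 with median centring) and 0.16 in Cy5 (adjusted p = 0.846).

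Genes of synaptic transmission had the same pattern of counts. Of 32 presynaptic vesicle release genes, 30 rose and 1 fell in the ratio (median 2.11), against 4 and 1 in Cy5 (median 0.05). For NMDA receptor subunits and partners of PSD-95, the target of the peptide given to the other animals, 22 of 28 rose and 1 fell in the ratio (median 1.68), and 5 rose and 1 fell in Cy5 (median 0.09). AMPA, kainate and metabotropic glutamate receptors counted 17 rises of 19 in the ratio (median 1.94) and 3 in Cy5 (median 0.02). GABA receptors and synthesis genes counted 15 of 18 in the ratio (median 2.10), while in Cy5 1 rose and 2 fell (median -0.48). Voltage-gated ion channels counted 37 of 46 in the ratio (median 1.94), and 7 rises and 1 fall in Cy5 (median 0.13). In Cy3 the medians of these 5 groups lay between -0.69 and -0.30. With median centring the ratio medians of the presynaptic, NMDA receptor and GABA groups turned to -0.60, -0.12 and -0.25, while those of the AMPA receptor group and the ion channels were 1.23 and 1.30. All 5 lay above the median over all genes with that centring, -0.89. The medians of the AMPA receptor group and the ion channels were 0.69 and 0.66 with arrays scaled to equal spread, and 0.39 and 0.53 as the difference of the quantile-normalised channels.

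Several neuronal genes that were higher in the ratio were lower in the sample channel, and the following were singled out after their values were seen. SNAP25, a SNARE protein of vesicle fusion, was higher by 1.57 ± 0.57 in the ratio (limma adjusted p = 0.0253) and lower by 1.52 on the log2 scale in Cy5 (-1.52 ± 0.28, adjusted p = 0.00161). GAD2, an enzyme of GABA synthesis, had 2.69 in the ratio and -0.97 in Cy5 (adjusted p = 0.0333). ELAVL3, a neuronal RNA-binding protein, had 1.42 and -1.04 (adjusted p = 0.0486).

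Within the neuronal and synaptic groups, a minority of genes met the rule for both readings. As rises they counted 3 of 26 neuronal markers, 3 of 32 presynaptic, 4 of 28 NMDA receptor and 4 of 46 ion channel genes. The AMPA receptor and GABA groups counted 0, and all genes tested 1.66%. None met it as a fall, but the rule asks for the sign of the ratio. In the ratio 0 or 1 gene of each group fell, so the direction was nearly fixed by the rule. On the postsynaptic side DLG4, CAMK2B, NOS1AP and NOS1 met it. DLG4, which encodes PSD-95, had Cy5 levels of 9.53, 10.09 and 10.37 at 6 h, against 8.38, 7.95 and 7.89 at 1 h. Its difference of 1.92 ± 0.41 passed (limma adjusted p = 0.00487), and it met the rule without each array in turn and after centring on base composition. Its Cy3 difference was -0.07, but its Cy3 probe was not well above background on any 1 h array. NOS1, neuronal nitric oxide synthase, had 7.90, 8.33 and 8.52 at 6 h, against 7.31, 7.198 and 7.39 at 1 h (0.95 ± 0.28). NOS1AP, its adaptor protein, had 9.42, 9.37 and 9.52 at 6 h, against 8.54, 8.22 and 8.63 at 1 h (0.97 ± 0.28). NOS1 and NOS1AP each lost the Cy5 call under 5 of 9 alternatives, with limma adjusted p up to 0.127 and 0.0852. CAMK2B, a kinase subunit, had 14.65, 14.90 and 15.93 at 6 h, against 13.61, 13.84 and 13.37 at 1 h, and its Cy5 difference of 1.56 became 0.46 (adjusted p = 0.290) after centring on base composition.

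On the presynaptic side SYP, SYN1 and SYT5 met the rule. SYP, a membrane protein of synaptic vesicles, had Cy5 levels of 9.47, 9.78 and 9.74 at 6 h, against 8.72, 8.46 and 8.48 at 1 h (1.11 ± 0.20, limma adjusted p = 0.00123). SYN1, which tethers vesicles, and SYT5, a calcium sensor, were higher by 0.95 and 1.09 in Cy5, and by 0.43 and 0.36 after centring, where they did not pass. Ion channels that met the rule included SCN8A, CACNA1A and KCNB2. CACNA1A, a calcium channel, had a Cy5 difference of 0.99 that became 0.41 (limma adjusted p = 0.299) after centring. SCN8A lost its Cy5 call without any of the 3 arrays at 6 h and without array 1 or 3 at 1 h (1.22 without array 3 at 1 h, adjusted p = 0.115). KCNB2, a delayed rectifier potassium channel, had 10.25, 10.50 and 10.55 at 6 h, against 9.08, 8.60 and 8.63 at 1 h (1.67 ± 0.39, adjusted p = 0.00852). NRGN, a calmodulin-binding protein of dendrites, had 11.14, 11.87 and 12.03 at 6 h, against 10.30, 10.48 and 9.52 at 1 h (1.58 ± 0.30), and its difference after centring was 0.98 (adjusted p = 0.0632).

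**Figure D5:**
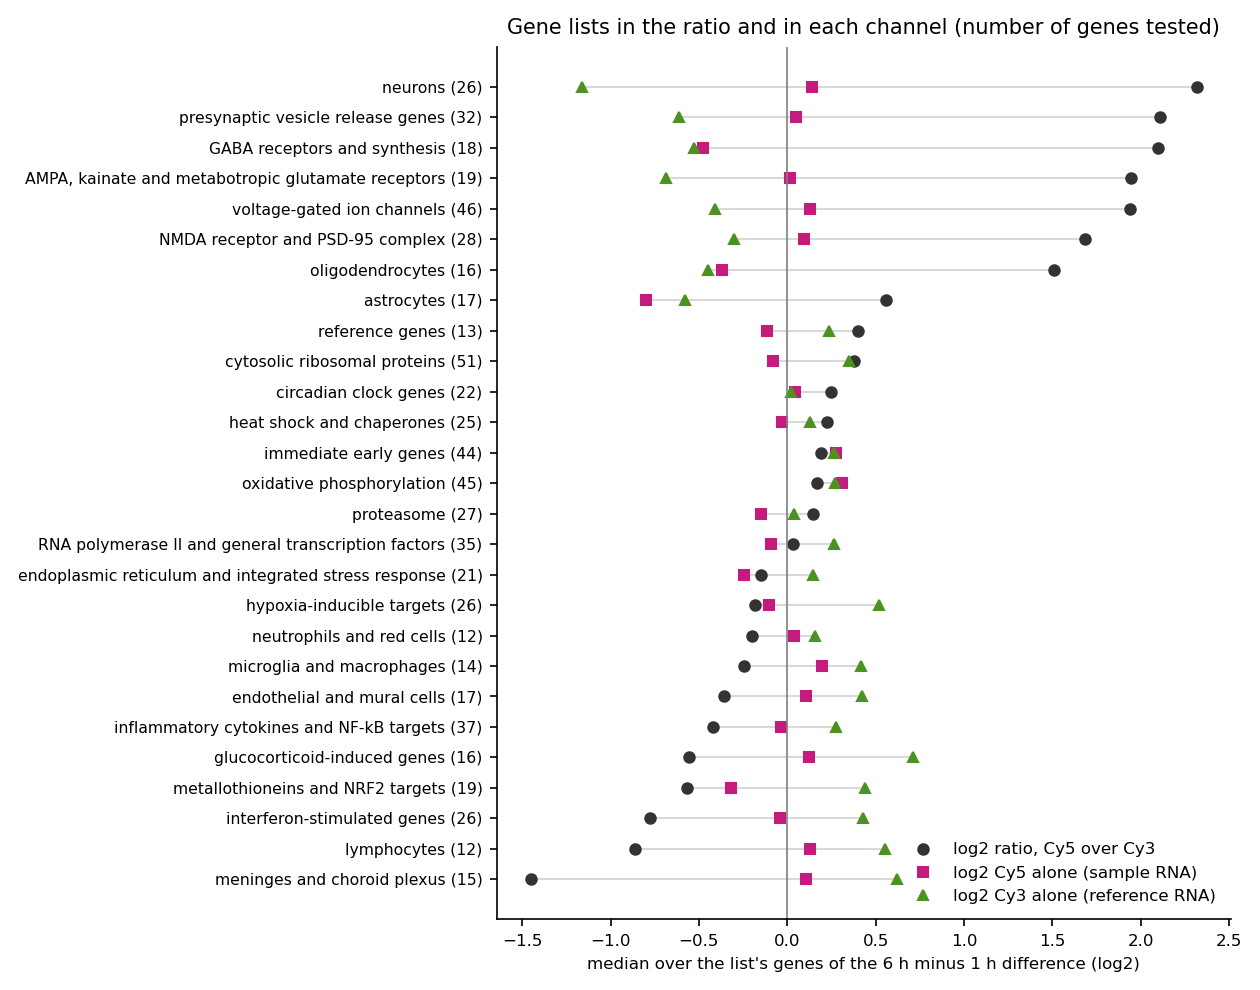
Median over each gene list of the 6 h minus 1 h difference (log2) in the ratio, in Cy5 and in Cy3, with the number of genes tested in brackets. Neuronal and synaptic lists lie between 1.68 and 2.32 in the ratio and between -0.48 and 0.14 in Cy5. With median centring the neuronal, presynaptic, NMDA receptor and GABA lists lie below 0, where the median over all genes is -0.89. Lymphocyte, interferon and inflammatory lists lie below 0 in the ratio.

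Markers of other cells moved with these counts in the ratio. Of 16 oligodendrocyte genes, 10 rose and 0 fell in the ratio (median 1.51), and 0 passed in Cy5 (median -0.37), and the ratio median was -1.01 with median centring. Of 17 astrocyte genes, 7 rose and 2 fell in the ratio (median 0.56), while 2 rose and 4 fell in Cy5 (median -0.80), and the ratio median was -3.03 with median centring and -0.082 with Agilent processed signals. Over the 17 astrocyte genes the Cy5 medians of the single arrays were 10.15, 11.02 and 12.035 at 6 h, against 11.80, 12.51 and 11.66 at 1 h, which overlapped. The astrocyte falls in Cy5 were AQP4, the water channel of the end feet, and SLC1A3, a glutamate transporter. The others were GJA1, the gap junction protein connexin 43, and SLC4A4. In that order their differences were -2.25, -2.18, -2.57 and -1.77. Of these 4, SLC4A4 passed as lower in the ratio too, and SLC1A3 passed there as higher (1.74). AQP4 and GJA1 had -0.42 and -0.61 without passing. APOE, a lipid carrier of astrocytes, was lower by 2.21 in the ratio (-2.21 ± 0.47, but 0.07 with arrays scaled to equal spread) and higher by 1.79 ± 0.25 in Cy5.

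Among genes of blood, vessels and meninges, falls outnumbered rises in the ratio, against 23.3% lower and 30.7% higher over all genes, with few calls in Cy5. Of 15 meningeal and choroid plexus genes, 7 fell and 1 rose in the ratio (median -1.45), against 0 falls and 1 rise in Cy5 (median 0.11), and the ratio median was 0.10 with arrays scaled to equal spread. Of 12 lymphocyte genes 8 fell in the ratio (median -0.86) and 0 passed in Cy5, and 2 of the 12 were well above background in Cy5 on all 6 arrays. Of 17 endothelial and mural genes 4 fell and 1 rose in the ratio (median -0.36, and 0.038 with equal spread), with 1 fall in Cy5. The share of falls in that list was close to the share over all genes. Of 12 neutrophil and red cell genes 4 fell and 1 rose in the ratio, with 1 in each direction in Cy5, and of 14 microglial genes 1 fell and 2 rose in the ratio, with 1 rise in Cy5. The part of these cells in the other counts was not tested.

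Of 26 interferon-stimulated genes, which respond to antiviral and inflammatory signals, 17 fell and 1 rose in the ratio (median -0.78, and -0.16 with arrays scaled to equal spread), and 3 fell in Cy5 (median -0.04). Those 3 met the rule for both readings: IFIT1, IFIT2 and IFIT5. IFIT1 had Cy5 levels of 9.47, 9.25 and 9.89 at 6 h, against 11.25, 10.59 and 10.94 at 1 h (-1.39 ± 0.42, limma adjusted p = 0.0329). IFIT2 had 8.71, 8.38 and 8.67 at 6 h, against 9.95, 9.73 and 9.68 at 1 h (-1.20 ± 0.37). IFIT5 had 7.01, 6.85 and 6.69 at 6 h, against 7.69, 7.73 and 7.92 at 1 h (-0.93 ± 0.20), and was the single member of the 3 that met the rule without each array in turn. All 3 read below every 1 h array at 6 h, as the rule requires, and after centring on base composition IFIT1 alone still passed. The Cy5 call was lost under 5 of 9 alternatives for IFIT1, 7 of 9 for IFIT2 and 2 of 9 for IFIT5. Other members fell in the ratio alone, among them IFI44 with -2.40 in the ratio and -0.29 in Cy5 (adjusted p = 0.696). Of 37 inflammatory cytokines and NF-kB targets, 11 fell and 1 rose in the ratio (median -0.42), and 1 rose in Cy5.

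Of 44 immediate early genes, which neurons induce within minutes of activity or stress, 14 rose and 3 fell in the ratio (median 0.19, but -0.98 with median centring), and 2 rose and 3 fell in Cy5 (median 0.27). ARC, a synaptic plasticity gene, had a ratio difference of 2.45 and a Cy5 difference of -0.18 (limma adjusted p = 0.915). With median centring its ratio difference was -0.63, against a median of -0.89 over all genes. CREM, a cAMP-responsive repressor, was the single member that met the rule for both readings, with 7.21, 7.03 and 6.84 at 6 h, against 7.79, 7.79 and 7.87 at 1 h in Cy5 (-0.79 ± 0.20), but its difference after centring on base composition was -0.37 (adjusted p = 0.180). Of 16 glucocorticoid-induced genes 2 rose and 5 fell in the ratio, and 2 rose and 1 fell in Cy5, with ZBTB16 higher (1.32 ± 0.27) and KLF9 lower in both readings. After centring the Cy5 difference of ZBTB16 was 0.59 (adjusted p = 0.182), and the ratio call of KLF9 (-0.85, adjusted p = 0.0483) was lost under 14 of 22 alternatives.

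Of 19 metallothioneins and targets of NRF2, the regulator of antioxidant genes, 2 rose and 9 fell in the ratio (median -0.57, but 0.25 with arrays scaled to equal spread), and 1 rose and 3 fell in Cy5 (median -0.32). NFE2L2, which encodes NRF2, had Cy5 levels of 9.76, 9.74 and 10.16 at 6 h, against 11.32, 11.34 and 11.36 at 1 h (-1.46 ± 0.31, limma adjusted p = 0.00442). The ferritin gene FTH1 and the autophagy receptor SQSTM1 were lower by smaller amounts, -0.49 ± 0.16 and -0.77 ± 0.21. These 2 falls did not pass after centring on base composition. The Cy5 call was lost under 8 of 9 alternatives for FTH1 and 5 of 9 for SQSTM1, with limma adjusted p up to 0.572 and 0.229.

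Oxidative phosphorylation genes counted 11 rises and 3 falls of 45 in the ratio, with 7 and 5 in Cy5, and SDHD, a subunit of succinate dehydrogenase, was lower in both readings (-1.37 ± 0.27 in Cy5), though its ratio difference was 0.22 with arrays scaled to equal spread. Cytosolic ribosomal proteins counted 12 rises and 2 falls of 51, with 9 and 4 in Cy5, and their ratio median of 0.38 was 1.02 with arrays scaled to equal spread, but -4.06 with median centring and -0.10 with Agilent processed signals. Proteasome genes counted 7 and 1 of 27, with 5 and 1 in Cy5, and PSMA1 was lower in both readings (-1.12 ± 0.29). Genes of RNA polymerase II and general transcription factors counted 3 and 2 of 35 in the ratio, and 3 and 2 in Cy5. Of 25 heat shock genes 7 rose and 4 fell in the ratio and 2 rose in Cy5, with the co-chaperone STIP1 among them (0.83 ± 0.25), but STIP1 lost its Cy5 call under 6 of 9 alternatives and 0 of the 25 rose in Cy5 after centring (0.44 for STIP1, adjusted p = 0.319). Hypoxia-inducible targets counted 7 and 8 of 26 in the ratio, and 2 and 2 in Cy5, circadian clock genes 8 and 4 of 22, with 0 and 1 in Cy5, and genes of the endoplasmic reticulum and integrated stress response 5 and 5 of 21, with 2 and 1 in Cy5. Of 13 genes often used as references, 5 rose and 2 fell in the ratio and 2 rose in Cy5. GAPDH, a glycolytic enzyme, had Cy5 levels of 15.99, 16.49 and 16.64 at 6 h, against 15.31, 15.10 and 15.22 at 1 h (1.16 ± 0.19, adjusted p = 0.000761), and TUBB, a tubulin, was higher by 1.25 ± 0.29, yet with median centring their ratio differences were -3.46 and -2.38 (-0.32 for TUBB with equal spread), and centring on base composition left Cy5 differences of 0.22 and 0.51 that did not pass.

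The same times were compared in the left cortex of TatNR2B9c-treated animals, whose arrays were all extracted with 1 software version. Its 1 h arrays and array 3 at 6 h were scanned on the same day, but arrays 1 and 2 at 6 h on another. Probes well above background in Cy5 made up 97.7%, 76.9% and 53.0% at 6 h, against 55.5%, 46.1% and 72.6% at 1 h. In that cortex 0 genes passed in the ratio and 0 in Cy5 by limma, with 2540 and 3534 at an unadjusted p under 0.05. The time difference itself differed between placebo and TatNR2B9c for 2231 genes in the ratio (14.1%) and for 140 in Cy5 (0.885%), and for 38 in both. The ratio count was 801 and 1130 without array 1 and array 3 at 6 h, and 473 and 1411 without array 1 and array 3 at 1 h. Of the 263 genes higher in both readings, 174 had a Cy5 difference above 0 in TatNR2B9c left cortex, with a median of 1.16 in placebo and 0.12 in TatNR2B9c animals. Of the 286 lower ones, 247 were below 0 there, with medians of -1.06 in placebo and -0.37 in TatNR2B9c animals. Over all genes tested the median Cy5 difference in TatNR2B9c left cortex was -0.07, so the 2 counts have unlike baselines. The share of all genes on each side of 0 was not counted. The treatment difference passed in both readings for 20 of the 263 and for 0 of the 286, although 5 of the 286 passed it in Cy5. These genes were chosen by their placebo difference, which is part of the treatment difference. The choice therefore favours such passes and larger medians in placebo animals, so these values are a description.

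The share of G and C correlated with the Cy5 time difference at 0.38 in TatNR2B9c left cortex too, beside 0.36 in placebo left cortex. Among the genes described above, GAPDH, MGC10772, SCN8A and TNRC4 passed the treatment difference in both readings. They too had been named for their placebo differences. SCN8A, a voltage-gated sodium channel, had Cy5 levels of 9.97, 9.82 and 9.52 at 6 h, against 8.26, 8.86 and 7.97 at 1 h in placebo animals. In TatNR2B9c animals it had 9.22, 11.40 and 11.49 at 6 h, against 12.03, 11.82 and 11.89 at 1 h. The sign was opposite under the 2 treatments, and every level of the placebo animals lay below all 1 h levels of the TatNR2B9c animals.

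The ischemic right cortex of placebo-treated animals was compared at the same times, with the same split of scanning between times. There 6438 genes passed in the ratio (40.7%) and 3921 in Cy5 (24.8%). The test of left against right found 0 genes whose time difference differed between the sides in the ratio and 0 in Cy5 by limma, with 309 and 241 at an unadjusted p under 0.05. Left and right arrays of a time share their animal numbers in the titles, so the sides are not independent samples. With the animal as a block, an alternative added after seeing the data, the limma counts were again 0 and 0. At an unadjusted p under 0.05 they were 408 and 601. Each of these unadjusted counts, with and without the block, is under a share of 0.05 of the 15812 genes tested. That share would pass on average with no difference. Of the 263 genes higher in both readings on the left, 244 passed as higher in Cy5 on the right, and of the 286 lower ones 265 passed as lower. Over all genes tested, 24.8% passed there in either direction. The median Cy5 differences of these genes were 1.16 on the left and 1.49 on the right for the rises, and -1.06 and -1.17 for the falls. The share of G and C correlated with the Cy5 time difference of the right cortex at 0.58.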

How the data were processed

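Gene expression was read on 24 two-colour Agilent arrays (sample RNA in Cy5, a universal reference RNA in Cy3, no dye swap), of which 6 belong to the comparison. The deposited scanner files hold spot intensities in each channel and Agilent's log10 ratio of Cy5 over Cy3, and the series matrix holds the authors' log10 ratios, which differed from the scanner ratios by at most 0.005. Its medians were 0, 0 and 0.0232 on the 6 h arrays, against 0.128, 0.059 and 0 on the 1 h arrays. Per the submitters' processing notes Feature Extraction 10.7.3.1 was used, while per the file headers the 6 h arrays carry 10.5.1.1 and the 1 h arrays 9.5.3.1.

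Mean and background intensities, with nonuniform spots left out, were corrected with normexp (offset 50) in limma 3.58.1 under R 4.3.3. Loess was applied to the ratios of each array and quantile normalisation to single channels, as log2 values computed from the deposited intensities. Of 41851 spots 1417 were controls. Replicate spots gave 20217 probes, of which 17226 were kept as well above background in Cy5 on all arrays of at least 1 group, and the brightest probe of each gene gave 15812 genes, 13837 with a symbol. Names came from 2 annotations in the files: the newest named 6633 probes and the older alone 10808, 2776 had none, and 1320 of 6051 probes named by both had different names. Old symbols were not updated. Some genes that the counts include are not reported here by name.

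One limma fit over 24 arrays had 8 group means, with Benjamini-Hochberg adjustment over all genes. The labels describe 3 animals per group, so n is 3 and the number of arrays limits the precision. On simulated data for the ratio (15771 genes) the fit called 53% of genes changed by 1 and 89% of those changed by 2 on the log2 scale, with 7 false calls. The simulated arrays had equal spread at both times and no difference in scanning, unlike the real ones. Their false calls therefore do not describe those of this comparison. Named genes were well above background in Cy5 on at least 2 arrays of each group, with no overlap of the groups: the 10 largest ratio rises and 10 falls, the 10 largest Cy5 rises and 10 falls meeting the rule for both readings, and up to 4 members of each of 27 lists (8 of cell markers, 19 of pathways). The comparison, its members and the lists were chosen with earlier results of these data known, and list members that met the rule for both readings were named after their values were seen. Same-numbered arrays deviated from their group means with correlations of 0.20, -0.23 and 0.17 in the ratio, and nothing in the labels says that numbers pair animals, so the fit had no block. Alternatives covered background, normalisation, filters, channels, weights, slide and scan day as random blocks, and leaving out each array.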

Additional observations from a re-analysis of the deposited data

Results flagged for a closer look

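The time difference of placebo left cortex differed from that of TatNR2B9c left cortex for 2231 genes in the ratio, for 140 in Cy5 alone and for 38 in both, by the limma test of the difference between the differences. The 6 h and 1 h arrays of TatNR2B9c left cortex shared 1 software version, but not all of them a scan day. Those of placebo left cortex shared neither, so treatment and scanning cannot be told apart in these counts. Among the genes named by size in placebo animals, 18 differed between the treatments in the ratio, and MGC10772 and TNRC4 did so in Cy5 as well. Their placebo difference, by which they were chosen, is part of this test, so the choice favours such passes.

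MGC10772 differed between the treatments by 1.90 ± 0.38 in Cy5 (limma adjusted p = 0.0234), with 1.71 in placebo and -0.19 in TatNR2B9c animals. Its levels in TatNR2B9c animals were 11.61, 11.71 and 12.06 at 6 h, against 12.54, 11.39 and 11.996 at 1 h, which overlapped. TNRC4 differed by 1.85 (adjusted p = 0.0162), with 1.98 in placebo and 0.14 in TatNR2B9c animals. Its levels in TatNR2B9c animals were 10.91, 12.12 and 11.45 at 6 h, against 11.15, 11.47 and 11.45 at 1 h, which overlapped too.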

How the results depend on the processing

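The 8534 ratio calls stayed within 1.5 times under no background subtraction (8435), no filter on dim probes (9032), the mean of all probes of a gene (8606), nonuniform spots kept (8514), only the 6 arrays in the fit (7187), array weights (8168) and slide (8508) or scan day (7825) as a random block. With the replicate number as a block the count was 8229, of which 7998 were among the 8534, and 1 of the 90 named ratio genes lost its call; the numbers were not shown to pair animals. Other settings moved the count. It was 4650 with Agilent processed signals, 4666 with the authors' series matrix (37.7% of them higher) and 2022 with arrays scaled to equal spread. With both channels above background on all 6 arrays it was 503 (82.3% higher), but only 1569 genes were tested. That is 32.1% called, against 54% in the main fit. The count was 4024 without the 3 weak-reference arrays, 2299 in Cy5 alone and 4733 in Cy3 alone. As the difference of the quantile-normalised channels, an alternative added after seeing the data, it was 3117 (43.7% higher). Median centring gave 12066 (34.2% higher). The Cy5 count was 3110 with scaling to the 75th percentile, 2453 without background subtraction and 1473 when centred on the G and C share of the probe. The Cy3 count was 12479 with scaling to the 75th percentile, where the median over all genes was -1.16. The difference between treatments passed for 140 genes in Cy5 alone, against 2231 in the ratio. The genes meeting the rule for both readings numbered 336 after centring on base composition, against 549.

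Leaving out each array in turn gave 6914 to 8758 ratio calls, 1096 to 1709 in Cy5, 2964 to 6780 in Cy3, 473 to 3108 for the difference between treatments, 0 for the difference between sides, and 250 to 455 genes meeting the rule. The 6 h minus 1 h difference in probes well above background was 11.96 to 27.0 percentage points in Cy5 and 54.2 to 71.6 in Cy3. The difference in the spread over genes was 0.492 to 0.854 in the ratio, -0.0105 to -0.00135 in Cy5 and -0.0155 to 0.0589 in Cy3.

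Named genes changed sign as follows, and the cause was not tested. Median centring moved the median over all genes to -0.89. With median centring the ratio difference was -3.03 for ALDOC, -0.63 for ARC, -0.64 for BSN, 0.31 for C1QC, -0.56 for CAMK2A, -1.46 for CSNK1E, -3.46 for GAPDH, -0.084 for GRIA2, -0.13 for HSD17B1, -1.64 for MT3, -0.99 for NPAS2, -0.15 for NPY, -0.93 for OLIG1, -1.98 for PDZK7, -2.92 for PER1, -2.45 for PSMC3, -3.36 for PSMD13, -0.23 for SLC2A1, -0.62 for STX1A, -2.68 for TAF6, -0.67 for TMEM10, -0.093 for TREM2 and -2.38 for TUBB. With arrays scaled to equal spread it was 0.070 for APOE, 0.16 for CA9, 0.065 for GZMB, 0.26 for MMP9, 0.10 for MT1G, -0.12 for NPAS2, 0.22 for SDHD, -0.32 for TUBB and 0.27 for TXNIP.

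Read in Cy5 alone in place of the ratio, the difference was 0.20 for ACSM3, -0.076 for ALDOC, 1.79 for APOE, -0.18 for ARC, 0.19 for C1QC, 0.17 for CA9, -0.49 for CACNA2D3, 0.68 for CBLC, 0.15 for CCL5, 1.09 for CDH1, 0.059 for COL3A1, -0.63 for DLGAP2, 0.054 for EDEM1, 0.18 for GIPC2, 0.42 for GZMB, 1.08 for ISG20, -0.060 for KCTD1, 0.12 for MOCOS, 1.18 for NEB, -0.012 for NPAS2, -0.36 for RPL10, 0.98 for SDF2L1, 0.19 for SLC23A1, -0.33 for SLC2A1, 0.48 for SLC40A1, -0.81 for TAF6, -0.37 for TMEM10 and 0.071 for TXNIP. As the difference of the quantile-normalised channels it was 0.020 for C1QC, 0.00090 for ISG20, -0.071 for RPL10 and -0.46 for SLC2A1. The difference between treatments read in Cy5 alone was 0.098 for MOCOS, -0.22 for SLC32A1, 0.025 for SLC40A1 and -0.47 for SLC8A2.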
